A study of Zea mays with 9 samples.

Results

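RNA-seq compared *dcl1-2* with wild type in P3 leaf primordia of maize, and the genes of the young leaf that rose or fell, other than the miRNA precursors, are described here. The gene entries were taken from the deposited count table, without the 150 entries for miRNA precursors and *tas3* transcripts, and were kept when their mean was at least 1 RPM in either genotype. RPM, the unit of level used here, is the count of an entry scaled to the total of its library in the table. This left 22457 of 45348 gene entries. Differentially expressed means an adjusted p under 0.05 and a log2 fold change of at least 1 in either direction, and members of a gene list rose or fell at an adjusted p under 0.05.

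There are 4 P3 libraries, 2 of wild type and 2 of *dcl1-2*, all from 14-d-old seedlings in the B73 inbred background. *dcl1-2* is a hypomorphic allele of *DICER-LIKE1* (*DCL1*) that had been introgressed into B73 for 4 generations, and wild-type plants were its siblings, so the groups may also differ in linked alleles from the donor of *dcl1-2*. Both groups of primordia were cut out by laser microdissection, at least 6 apices were pooled for each biological replicate, and the RNA was linearly amplified. The same genotypes were profiled in the central zone (CZ) of the shoot apical meristem, with 2 libraries each, and these values are set beside those of P3. The series holds 9 samples in all.

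DCL1 is the RNase III enzyme of plants that cuts miRNAs out of their hairpin precursors. The miRNA is loaded into an Argonaute protein and guides cleavage of transcripts that pair with it, so many miRNAs limit the transcripts of developmental transcription factors. A P3 primordium is a young leaf that surrounds the apex. In such leaves miR166 restricts class III HD-ZIP genes to the adaxial side, miR164 limits boundary genes of the NAC family, miR396 limits growth-regulating factors and miR156 limits SPL genes of the juvenile-to-adult transition.

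The P3 libraries held 8626824 to 10328582 counts, so 1 count was worth 0.0968 to 0.116 RPM. Read pairs appear to have been counted as 2 reads in P3. Replicates had a Pearson's r of 0.971 in wild type and 0.977 in *dcl1-2*, computed on log2(RPM + 1) across genes, and in both genotypes they differed by more than sampling noise. The tissue matched its markers. YABBY genes, which mark leaf primordia, summed to 806 to 1079 RPM in the P3 libraries and to 10.4 to 54.2 RPM in the CZ, and class I KNOX genes, which mark meristem cells, summed to 83.2 to 102 RPM in P3 and 1250 to 1522 RPM in the CZ. None of the 8 tested genes of either list passed the test in P3. Markers of vasculature summed to 62.9 to 65.4 RPM and those of older green leaves to 10.7 to 15.9 RPM, with 2 of the 9 green leaf markers at 0 in every P3 library. The 5 epidermal markers summed to 2799 and 3150 RPM in wild type and to 3571 and 3765 RPM in *dcl1-2*, and 2 of them rose.

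*DCL1* itself (GRMZM2G040762, chr1:4607185-4614592 in B73 RefGen_v3, the build of all coordinates given here) was at 73.2 and 101 RPM in wild-type P3 and 141 and 136 RPM in *dcl1-2* P3. It is a target of miR162. Both *dcl1-2* libraries were above both wild-type libraries, with a log2 fold change of 0.74 (SE 0.15, adjusted p = 0.0114). Without *dcl1-2* replicate 1 the adjusted p was 0.0501, and without replicate 2 it was 0.0522. Of the 46 tested genes of miRNA biogenesis, activity and turnover listed by the study, *DCL1* was the 1 that passed the test.

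In P3 of *dcl1-2*, 602 gene entries were differentially expressed, 472 higher and 130 lower. Their change ran from 2-fold to well over 8-fold. Among the entries that rose, 272 changed by less than 4-fold and 87 by 8-fold or more. Among those that fell, the numbers were 75 and 42. With precursors included, 2.76% of the 22498 entries tested were differentially expressed, 2.18% higher and 0.587% lower. The median log2 fold change over all tested genes was −0.02. The libraries of the genotypes did not overlap for 11231 of the 22457 gene entries tested, and for 601 of the 602. Where a lack of overlap is given for a gene below, it is therefore a description and not evidence of a change. DESeq2 called 579 genes, 569 of them shared with edgeR. Leaving out 1 library at a time gave 422 to 759 genes, the number that rose was 301 without *dcl1-2* replicate 2, and the number that fell was 220 without wild-type replicate 1. An adjusted p under 0.05 was kept by 281 of the 602 entries when any 1 library was left out.

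**Figure D1:**
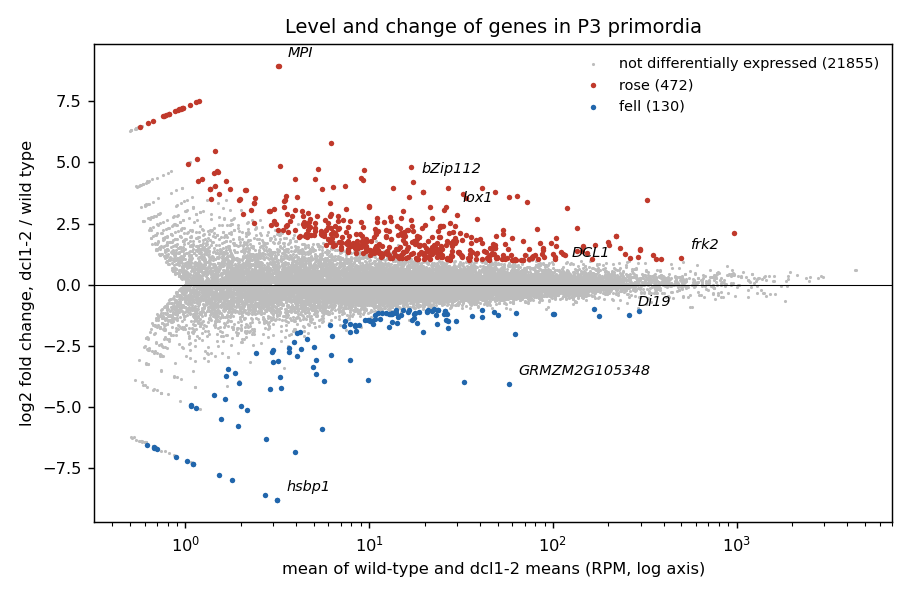
Change in *dcl1-2* P3 (log2 fold change from edgeR, vertical axis) against the mean level of each gene entry (RPM, log axis). Each point is 1 of 22457 gene entries; 472 rose (red) and 130 fell (blue). Diagonal lines of points come from genes with no count in 1 genotype, whose fitted fold change depends on the small count added by the fit.

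The change was seen at all levels of expression. Among entries at 1 to 5 RPM in the genotype with the higher mean, 44 rose and 24 fell of 4517. At 5 to 20 RPM, 182 rose and 60 fell of 6557, and at 20 to 100 RPM, 197 rose and 38 fell of 9080. At 100 RPM or more, 49 rose and 8 fell of 2303. The 602 entries are fewer loci, because 201 of them overlap another entry of the table, and merging entries that overlap left 419 rising and 117 falling loci. Among the genes named here, GRMZM2G003509, *lox10*, *aoc2*, *TIFY6*, *TIFY12*, *BX4*, *BX5*, *bx8*, *sbp27*, *sbp29*, *SCR*, *ts2*, *ocl3*, *frk2*, *SnRK2.7*, *hsp101* and *PP2C11* overlap another entry. Reads of overlapping entries could be split between them. Among the 602, 15 overlap a precursor or *tas3* model. GRMZM2G374085, at 403 and 350 RPM in wild type and 1619 and 1480 RPM in *dcl1-2*, overlaps *MIR159a*, and GRMZM2G096372, at 54.5 and 58.8 RPM against 606 and 586 RPM, overlaps *MIR166d*. Reads of these 2 models cannot be told apart from those of the precursors.

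Targets of miRNAs are shown first, with the sequences that pair. The mature miRNAs of 5 families whose rising targets are described below are given 5′ to 3′, with the seed (bases 2 to 8) in capitals.
miR156: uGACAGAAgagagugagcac
miR164: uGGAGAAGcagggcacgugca
miR166: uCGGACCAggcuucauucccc
miR169: uAGCCAAGgaugacuugccua
miR396: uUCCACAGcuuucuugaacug
Below are target sites of the same families, 5′ to 3′, with the bases opposite the seed in capitals. The site given for miR396 has a bulged base among them.
SPL site of miR156: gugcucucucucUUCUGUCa
NAC site of miR164: agcucgugcccugCUUCUCCa
HD-ZIP III site of miR166: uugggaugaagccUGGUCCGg
NF-YA site of miR169: uaggcaaaucauuCUUGGCUg
GRF site of miR396: ccguucaagaaagCCUGUGGAa

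Of 153 listed targets, 111 were tested in P3, 21 rose and none fell, beside 3.34% of all entries that rose at this threshold and 1.16% that fell. The share that rose was 18.9%, and the median log2 fold change over the tested targets was 0.26. The study listed some of these genes from pairing and degradome reads and others by phylogenetic analysis, not from their change in *dcl1-2*. Without *dcl1-2* replicate 2, 15 targets passed the test. In limma-voom 19 rose, in DESeq2 21, and with all 8 libraries in 1 model 15.

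Targets of miR166 include the class III HD-ZIP genes, which specify the adaxial leaf side and vascular pattern. Of the 8 tested targets 4 rose, and all 8 had a positive log2 fold change, with a median of 0.72. GRMZM2G178102, similar to *PHABULOSA* of *Arabidopsis* (chr3:123263423-123270240), was at 105 and 101 RPM in wild type and at 331 and 271 RPM in *dcl1-2*. This is 3.05-fold (log2 1.61, SE 0.14, adjusted p = 5.18e-06). Its paralog GRMZM2G003509 was at 53.0 and 48.3 RPM against 104 and 103 RPM, a log2 fold change of 1.09. Both carry the HD-ZIP III site printed above. GRMZM2G469551 and *rld2* (GRMZM2G042250), both similar to *REVOLUTA* of *Arabidopsis*, carry a site that differs from it in the first base and rose by 1.01 and 0.80 on the log2 scale. *HB133* (GRMZM2G109987) carries that same site and had a log2 fold change of 0.16 (adjusted p = 0.571). *rld2* (chr1:2793728-2800641) lies within 20 Mb of *DCL1*, so an effect of linked alleles from the donor of *dcl1-2* cannot be told apart. The call of *rld2* was lost without *dcl1-2* replicate 1 (adjusted p = 0.0519).

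Targets of miR164 encode NAC transcription factors of organ boundaries. *CUC2* (GRMZM2G393433, chr6:16291162-16293492) was at 10.03 and 9.97 RPM in wild type and 26.1 and 33.6 RPM in *dcl1-2*, 3.13-fold higher (log2 1.64, SE 0.25, adjusted p = 0.000932). GRMZM2G139700, also similar to *Arabidopsis CUC2*, was at 7.66 and 3.83 RPM against 16.3 and 24.7 RPM (log2 1.89, SE 0.36, adjusted p = 0.00599). The genotypes did not overlap for either gene, and their sites are identical. The other tested target, GRMZM2G114850, was at 2.59 and 2.32 RPM in wild type and 8.70 and 6.20 RPM in *dcl1-2*, with an adjusted p of 0.0545.

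Targets of miR169 encode NF-YA subunits of a CCAAT-binding complex, and 4 of 9 rose, with a median of 0.70. The site printed for miR169 is shared by 3 tested genes, and all 3 rose, by 1.23 to 1.34 on the log2 scale. *NF-YA4* (GRMZM5G853836, chr1:174849414-174850967) was at 15.2 and 19.2 RPM in wild type and 41.4 and 35.5 RPM in *dcl1-2*. *NF-YA11* (GRMZM2G165488) was at 9.83 and 8.00 RPM against 14.3 and 28.7 RPM, and its call rested on *dcl1-2* replicate 2, without which the adjusted p was 0.544. It was also lost without wild-type replicate 2 (adjusted p = 0.0961). The others that rose were GRMZM5G829103, with the same site, from 5.90 and 10.2 RPM to 21.2 and 16.9 RPM, and GRMZM2G000686, from 60.6 and 49.7 RPM to 84.1 and 87.2 RPM. Their calls were lost without *dcl1-2* replicate 1 (adjusted p = 0.0837 and 0.0616), that of GRMZM5G829103 also without wild-type replicate 1 (adjusted p = 0.0685) and that of GRMZM2G000686 also without *dcl1-2* replicate 2 (adjusted p = 0.164). *NF-YA4* also rose in the CZ, from a mean of 23.0 RPM to 76.3 RPM (log2 1.70, adjusted p = 0.00341). GRMZM2G000686 (chr1:15806192-15809456) lies within 20 Mb of *DCL1*, so an effect of linked donor alleles cannot be told apart for it.

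Growth-regulating factors (GRF genes), the targets of miR396, promote cell proliferation in leaves, and 3 of 16 rose. *GRF9* (GRMZM2G124566, chr4:155804713-155806066) was at 2.59 and 2.67 RPM in wild type and 12.1 and 48.5 RPM in *dcl1-2*, so both *dcl1-2* libraries were higher but far apart. *GRF11* (GRMZM2G067743) was at 47.7 and 51.9 RPM against 94.2 and 119 RPM (log2 1.17, SE 0.16, adjusted p = 0.000457), and *GRF12* (GRMZM2G119359) rose by 0.80 on the log2 scale. All carry the GRF site printed above, which is shared by 12 tested targets whose log2 fold changes ran from −0.60 to 3.60. The call of *GRF12* was lost without *dcl1-2* replicate 2 (adjusted p = 0.0651). Another miR396 target with the symbol *GRF9*, GRMZM5G893117, was at 7.97 and 8.35 RPM in wild type and 3.41 and 3.87 RPM in *dcl1-2*. Its log2 fold change was −1.09, and it did not pass the test (adjusted p = 0.161).

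SPL genes, the targets of miR156, had 3 of 16 members that rose. *sbp29* (GRMZM2G067624) was at 39.9 and 33.3 RPM in wild type and 73.5 and 89.1 RPM in *dcl1-2* (log2 1.22, SE 0.18, adjusted p = 0.000724). *sbp27* (GRMZM2G097275) was at 49.1 and 36.6 RPM against 77.0 and 82.2 RPM, and *ub3* (GRMZM2G460544), which limits lateral primordia in maize, at 76.0 and 74.1 RPM against 112 and 108 RPM. *sbp27* and *ub3* carry the printed SPL site, which is shared by 15 tested targets with log2 fold changes from −1.05 to 1.42. The call of *ub3* was lost without *dcl1-2* replicate 1 (adjusted p = 0.162) or 2 (adjusted p = 0.170).

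No target passed the test for miR159, miR167, miR168, miR171, miR172, miR319, miR393, miR394, miR395, miR398, miR408 and miR827, and their median log2 fold changes ran from −0.57 (miR394) to 0.92 (miR408). Each of these 2 medians is over only 2 tested targets, which for miR408 had log2 fold changes of −0.04 and 1.88. Of the 6 tested targets of miR160, 1 auxin response factor gene rose, GRMZM2G081406, from 9.62 and 10.3 RPM to 16.0 and 24.8 RPM. Its call was lost without *dcl1-2* replicate 2 (adjusted p = 0.503), wild-type replicate 1 (adjusted p = 0.0626) or wild-type replicate 2 (adjusted p = 0.0748). Of the 7 tested targets of miR390, 3 rose, and each of the 3 overlaps a *tas3* transcript. GRMZM2G512113, which overlaps *tas3i*, was at 98.2 and 90.8 RPM in wild type and 313 and 293 RPM in *dcl1-2* (log2 1.74, SE 0.14, adjusted p = 1.2e-06). Bases that do not pair, with G:U pairs counted as paired, numbered 1 to 4 at the sites of the 21 rising targets and 0 to 6 at those of 70 others, with a median of 2 in each set. At most 1 such base was found at 28.6% of the former and 47.1% of the latter.

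**Figure D2:**
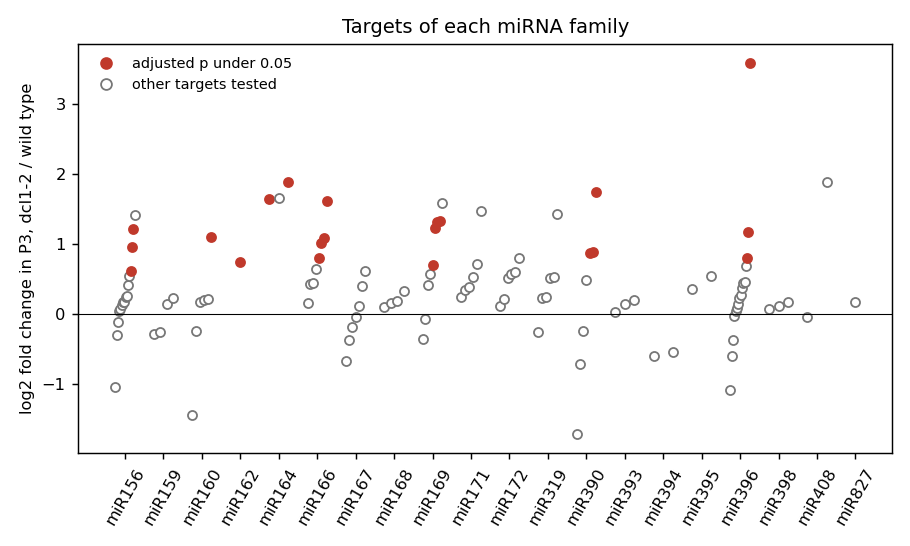
Log2 fold change in *dcl1-2* P3 of the 111 tested targets, by miRNA family. Each circle is 1 target gene; the 21 filled circles passed the test (adjusted p under 0.05), all with a positive change, in families miR156, miR160, miR162, miR164, miR166, miR169, miR390 and miR396.

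Genes of jasmonate synthesis and wounding formed the list with the largest share of rising members among the lists with at least 10 tested genes. The list was chosen with earlier results of these data known, so its share is a description. Jasmonate is made from linolenic acid by 13-lipoxygenases, allene oxide synthase (AOS), allene oxide cyclase (AOC) and OPR reductases, and acts through MYC transcription factors that JAZ proteins, members of the TIFY family, hold in check. Of the 35 genes with such names, 21 were tested, 10 rose and none fell, which is 47.6% against 3.34% of all entries. Their median log2 fold change was 0.81. The list takes lipoxygenases by name, and which of them serve jasmonate synthesis was not tested. The count was 8 without either *dcl1-2* library or without wild-type replicate 2, 9 in DESeq2, 8 with total counts only, and 4 with all 8 libraries in 1 model.

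The lipoxygenases differed widely. *lox1* (GRMZM2G156861) was at 3.62 and 3.13 RPM in wild type and 52.0 and 49.3 RPM in *dcl1-2*, a 15.6-fold difference (log2 3.96, SE 0.25, adjusted p = 1.37e-07). Its model at chr3:168695539-168839001 contains GRMZM2G458554 on the opposite strand, which also rose. *lox10* (GRMZM2G015419, chr4:233625686-233629448), which in maize feeds the synthesis of green leaf volatiles, was at 2.59 and 9.39 RPM against 38.8 and 36.7 RPM (log2 2.75, SE 0.37, adjusted p = 0.000358). *lox5* (GRMZM2G102760) was at 26.5 and 58.5 RPM against 83.9 and 78.4 RPM, a smaller change next to a wide wild-type spread. *lox11* (GRMZM2G009479) rose by 0.56 on the log2 scale, a call lost without *dcl1-2* replicate 1 (adjusted p = 0.305) or 2 (adjusted p = 0.178). *lox4* (GRMZM2G109056) was at 49.9 and 52.3 RPM in wild type and 26.9 and 36.8 RPM in *dcl1-2*, with an adjusted p of 0.0877. *lox7* was called from 0.207 and 0 RPM against 0.771 and 4.94 RPM, and was lost without wild-type replicate 2 (adjusted p = 0.132) and below the filter without *dcl1-2* replicate 2, while *lox3*, *lox6* and *lox9* did not pass the test.

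The steps after the lipoxygenases rose for some gene copies. *aos1* (GRMZM2G067225, chr9:145346839-145349218) was at 16.7 and 10.7 RPM in wild type and 53.8 and 53.4 RPM in *dcl1-2* (log2 2.03, SE 0.23, adjusted p = 7.19e-05). Its relative *aos2* (GRMZM2G002178) was at 94.9 and 82.8 RPM against 71.0 and 79.2 RPM, with an adjusted p of 0.604. *aoc1* (GRMZM2G077316) was at 27.1 and 37.3 RPM against 83.5 and 127 RPM (log2 1.78, SE 0.21, adjusted p = 9.31e-05). *aoc2* (GRMZM2G415793) rose by 0.98 on the log2 scale, a call lost without wild-type replicate 2 (adjusted p = 0.0747) or *dcl1-2* replicate 1 (adjusted p = 0.129). The reductase genes *opr7* and *opr8* had log2 fold changes of 0.22 and −0.12 and did not pass the test.

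*MYC2a* (GRMZM2G001930), a bHLH factor of jasmonate responses, was at 53.3 and 52.3 RPM in wild type and 94.5 and 107 RPM in *dcl1-2*, a 2.00-fold difference (adjusted p = 0.00106). *MPI* (GRMZM2G028393, chr8:134463276-134464177), a wound-induced proteinase inhibitor, had no count in either wild-type library and 6.50 and 6.29 RPM in *dcl1-2*. Against a floor of 3 counts over the wild-type libraries it was at least 39.0-fold higher, and it overlaps a model on the other strand, GRMZM2G028656, with nearly the same counts. Among the 14 tested genes with a TIFY name, a grouping made after values were seen, 1 rose, *TIFY6* (GRMZM2G117513), from 41.5 and 42.2 RPM to 88.2 and 76.0 RPM. *TIFY12*, *TIFY25* and *TIFY30*, which are in the jasmonate list, did not pass the test.

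**Figure D3:**
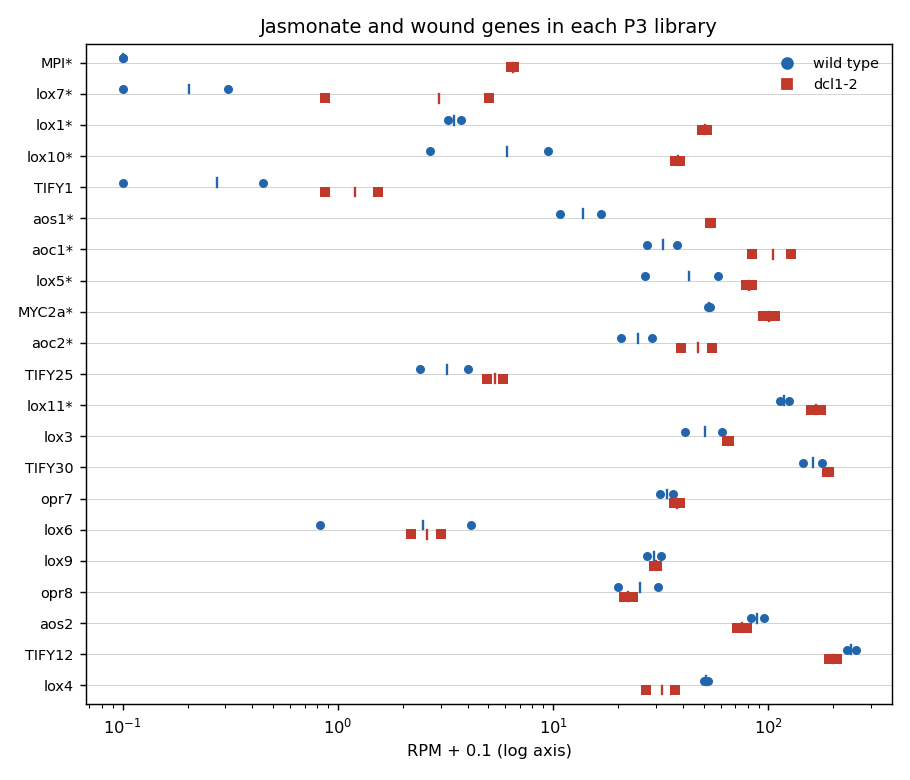
RPM of the 21 tested jasmonate and wound genes in each P3 library (log axis, after adding 0.1 RPM), ordered by log2 fold change. Circles are the 2 wild-type libraries, squares the 2 *dcl1-2* libraries and short lines their means; the 10 genes with an asterisk passed the test. The genotypes are farthest apart for *MPI* and *lox1*, and close together for *aos2*, *opr8* and *lox9*.

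Benzoxazinoids are indole-derived defence compounds of young maize tissue, made by the BX enzymes. Of 9 tested genes, 3 rose and 1 fell, beside 3.34% and 1.16% of all entries. *BX5* (GRMZM2G063756, chr4:3108397-3110973), a P450 of the pathway, was at 82.1 and 89.5 RPM in wild type and 255 and 248 RPM in *dcl1-2* (log2 1.62, SE 0.13, adjusted p = 2.25e-06). *bx8* (GRMZM2G085054), a glucosyltransferase gene at chr4:3210119-3212030, was at 44.6 and 50.7 RPM against 109 and 151 RPM (log2 1.52, SE 0.17, adjusted p = 8.16e-05). *BX4* (GRMZM2G172491), another P450 gene, rose by 0.81 on the log2 scale, a call lost without *dcl1-2* replicate 1 (adjusted p = 0.173). *BX3* (GRMZM2G167549) was at 23.4 and 37.8 RPM against 45.6 and 37.2 RPM and did not pass. *bx1* (GRMZM2G085381), the first step of the pathway, went the other way, at 0.724 and 21.2 RPM in wild type and 0.330 and 0 RPM in *dcl1-2*. The fall of *bx1* rests on wild-type replicate 2, and without it the gene was below the filter. The list thus held changes in both directions, with a median of 0.39.

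Other defence and secondary metabolism genes rose one at a time. *mlo3* (GRMZM2G031331, chr2:46437782-46442878), of the MLO family of powdery mildew susceptibility proteins, was at 6.93 and 4.17 RPM in wild type and 28.2 and 29.1 RPM in *dcl1-2* (log2 2.42, SE 0.29, adjusted p = 0.000141). *gst41* (GRMZM2G097989), a glutathione transferase, was at 18.2 and 24.8 RPM against 42.2 and 128 RPM. Of the 16 tested glutathione transferase genes 2 rose and none fell, beside 3.34% of all entries that rose, and 7 had a positive log2 fold change (median −0.16). *dhn2* (GRMZM2G373522, also named dehydrin3), a dehydrin that protects cells in drought and cold, was at 70.7 and 79.5 RPM against 248 and 183 RPM (log2 1.58, SE 0.16, adjusted p = 2.11e-05). *PAL1* (GRMZM2G074604), the entry step of phenylpropanoid synthesis, rose by 0.78 on the log2 scale and was lost without *dcl1-2* replicate 1 (adjusted p = 0.157). It was the 1 of 9 tested lignin and phenylpropanoid genes that passed, and their median was 0.07. The 12 tested WRKY genes, a family of defence regulators, had no member that passed the test, and their median was 0.19.

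The lists of class I KNOX genes, meristem regulators and leaf polarity genes held 1 rising gene each or none. Of the class I KNOX genes none of 8 rose, of meristem regulators 1 of 13 (*bif2*) and of YABBY and leaf polarity genes 1 of 13 (*rld2*, a target of miR166), beside 3.34% of all entries. Single regulators outside these lists also rose. *SCR* (GRMZM2G131516, chr4:185307888-185311471), a GRAS factor of ground tissue patterning and vein spacing in maize leaves, was at 180 and 196 RPM in wild type and 340 and 443 RPM in *dcl1-2* (log2 1.12, SE 0.15, adjusted p = 0.000253). *scl23* (GRMZM2G106548), of the same family, was at 8.48 and 6.96 RPM against 21.7 and 21.8 RPM. *SCR* and *scl23* were singled out after their values were seen. *bZip112* (GRMZM2G103647, chr9:109142262-109144645) was the 1 of 18 tested bZIP genes that passed, at 1.55 and 2.20 RPM against 35.5 and 29.7 RPM, 18.2-fold (log2 4.18, SE 0.31, adjusted p = 7.45e-07). *ts2* (GRMZM2G455809), the tasselseed dehydrogenase gene of sex determination, was at 0.414 and 0.464 RPM against 2.75 and 5.81 RPM, and its call was lost without *dcl1-2* replicate 2 (adjusted p = 0.261).

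Of the other transcription factor families, 3 of 28 bHLH genes, 3 of 31 MYB genes, 2 of 9 NAC genes, 1 of 19 MADS genes and 1 of 7 TCP genes rose and none fell, and the homeobox list had 1 member of 17 that fell, *HB131* (GRMZM2G111204). Over all entries 3.34% rose and 1.16% fell. The shares that rose in these 5 families ran from 5.26% (MADS) to 22.2% (NAC), but each rests on 1 to 3 genes, and nothing is read from them. One of the 2 NAC genes is *CUC2*, already counted above as a target of miR164. The bHLH genes included *bHLH53* (GRMZM2G111146), at 23.6 and 34.2 RPM in wild type and 60.4 and 69.4 RPM in *dcl1-2*, and *bHLH114* (GRMZM2G095899), at 43.6 and 29.4 RPM against 66.5 and 79.4 RPM. *MYB-IF35* (GRMZM2G051256), named after its values were seen, was at 20.4 and 14.6 RPM against 53.6 and 55.4 RPM. *HB131* was at 48.7 and 44.4 RPM against 25.1 and 29.4 RPM, and its call was lost without wild-type replicate 1 (adjusted p = 0.104), *dcl1-2* replicate 1 (adjusted p = 0.273) or replicate 2 (adjusted p = 0.0966). *MADS76* (GRMZM2G070034) was at 16.0 and 16.2 RPM against 32.5 and 35.4 RPM (log2 1.14, SE 0.21, adjusted p = 0.00509). No member passed among 21 AP2/ERF genes, 3 GRAS genes found by symbol and 3 DOF genes.

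Epidermal HD-ZIP IV genes, which specify the outer cell layer, had a positive log2 fold change in all 7 tested members. Their median was 0.32, against −0.02 over all tested genes, and 2 rose, beside 3.34% of all entries. *ocl3* (GRMZM2G116658) was at 34.2 and 53.8 RPM in wild type and 63.6 and 82.3 RPM in *dcl1-2*. *ocl5* (GRMZM2G130442) was at 58.8 and 67.5 RPM against 91.2 and 94.2 RPM. Both calls were lost without *dcl1-2* replicate 2 (adjusted p = 0.287 and 0.252), that of *ocl5* also without *dcl1-2* replicate 1 (adjusted p = 0.113) and that of *ocl3* without wild-type replicate 1 (adjusted p = 0.0767). *CER1* (GRMZM2G099097), of cuticular wax synthesis in the epidermis, was at 101 and 116 RPM against 159 and 210 RPM, and was lost without *dcl1-2* replicate 2 (adjusted p = 0.194). The summed level of the epidermal markers was higher in both *dcl1-2* libraries, as given above. It includes *ocl3* and *ocl5*, whose levels were a small part of it. The part of this summed level in these changes was not tested. In bulk tissue more cells of a type cannot be told apart from more RNA per cell.

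Auxin is the hormone that positions leaves and veins. *br2* (GRMZM2G315375), an ABCB transporter of stem elongation, was at 14.6 and 14.1 RPM in wild type and 23.9 and 32.6 RPM in *dcl1-2*, and *bif2* (GRMZM2G171822), a kinase of auxin transport, at 1.14 and 1.16 RPM against 4.29 and 6.10 RPM. Both rose, and both calls were lost without *dcl1-2* replicate 2 (adjusted p = 0.291 and 0.323) or wild-type replicate 2 (adjusted p = 0.0521 and 0.0842), that of *bif2* also without wild-type replicate 1 (adjusted p = 0.0609). Of 20 tested genes of auxin signalling none passed, and their median was 0.03.

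Of 17 cytokinin genes, 1 rose and 1 fell, beside 3.34% and 1.16% of all entries. *CKX12* (GRMZM2G008792), a cytokinin oxidase that degrades the hormone, was at 19.8 and 17.0 RPM in wild type and 37.2 and 48.9 RPM in *dcl1-2* (log2 1.29, SE 0.21, adjusted p = 0.00195). The receptor kinase gene *hk2* (GRMZM2G471529) was at 68.0 and 63.2 RPM against 42.1 and 40.0 RPM, and its call was lost without wild-type replicate 1 (adjusted p = 0.0869), *dcl1-2* replicate 1 (adjusted p = 0.177) or replicate 2 (adjusted p = 0.334). Of 25 cell cycle genes 2 rose, among them *cyclin11* (GRMZM2G161382), at 19.1 and 16.7 RPM against 38.3 and 32.4 RPM, which was lost without *dcl1-2* replicate 1 (adjusted p = 0.0593). Of the 11 histone genes all had a positive log2 fold change, with a median of 0.27, and *H1* (GRMZM2G003002), a linker histone gene, passed the test, from 686 and 469 RPM to 878 and 822 RPM. That call was lost without *dcl1-2* replicate 1 (adjusted p = 0.219) or 2 (adjusted p = 0.182).

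Some genes of carbon metabolism, taken singly and not as a list, also passed the test. *frk2* (GRMZM2G051677, chr6:3570233-3573347), a fructokinase, was at 358 and 292 RPM in wild type and 667 and 669 RPM in *dcl1-2*, 2.15-fold (log2 1.10, SE 0.14, adjusted p = 0.000183). *adh2* (GRMZM2G098346), an alcohol dehydrogenase of low-oxygen metabolism, was at 4.55 and 1.62 RPM against 15.1 and 16.0 RPM. *pdh2* (GRMZM2G127798), named after its values were seen, was at 59.5 and 51.0 RPM against 116 and 104 RPM. The sucrose synthase gene *sus2* (GRMZM2G318780) fell, from 7.14 and 3.25 RPM to 0.881 and 0.581 RPM, a call lost without wild-type replicate 1 (adjusted p = 0.204) or *dcl1-2* replicate 2 (adjusted p = 0.0953). Unnamed genes also rose from high levels. GRMZM2G003368 (chr1:120847319-120849204), which overlaps a model on the other strand with nearly the same counts, was at 72.6 and 110 RPM against 301 and 399 RPM. GRMZM2G496319 (chr8:173863276-173864642) was at 201 and 232 RPM against 458 and 505 RPM.

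Genes near the detection limit in wild type had the largest relative rises. GRMZM5G803153 (chr7:87517806-87518207) was at 0.310 and 0.116 RPM in wild type and 8.26 and 16.2 RPM in *dcl1-2* (log2 5.79, SE 0.64, adjusted p = 6.58e-05). GRMZM5G871801 (chr4:5456245-5456916) was at 0.517 and 1.97 RPM against 30.3 and 34.9 RPM, and GRMZM2G702204 (chr3:212117811-212119062) at 0.931 and 0.464 RPM against 18.8 and 17.2 RPM. The genotypes did not overlap for these genes, and the *dcl1-2* replicates of GRMZM5G803153 were farther apart than those of the others. GRMZM5G867776 was at 2.53 and 32.0 RPM in *dcl1-2*, and its call was lost without replicate 2 (adjusted p = 0.651). In all, 20 differentially expressed entries had no count in wild type and 13 had none in *dcl1-2*.

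Some genes with no symbol in the name table had large falls. Fitted falls were larger for some other genes, among them *hsbp1* (log2 −8.83) and *bx1* (log2 −5.92), whose calls rest on wild-type replicate 2. GRMZM2G015844, at 3.41 and 7.42 RPM in wild type and 0.110 and 0 RPM in *dcl1-2*, had a log2 fold change of −6.31. GRMZM2G105348 (chr5:150189676-150191211) was at 130 and 88.9 RPM in wild type and 5.95 and 6.49 RPM in *dcl1-2*, a 16.8-fold fall (log2 −4.07, SE 0.23, adjusted p = 5.65e-08). GRMZM5G872392 (chr5:164854921-164858109) was at 75.7 and 47.4 RPM against 3.30 and 4.16 RPM (log2 −3.97, SE 0.28, adjusted p = 5.39e-07). GRMZM2G106819 (chr8:124796660-124797582) was at 20.1 and 17.0 RPM against 1.54 and 0.871 RPM, and GRMZM5G897067 (chr5:81859618-81861368) at 12.1 and 9.27 RPM against 0.220 and 1.07 RPM. Among falling genes with high levels, GRMZM2G123896 (chr1:222590813-222592606) was at 365 and 449 RPM against 170 and 193 RPM, and GRMZM2G150688 (chr1:256085889-256086777) at 109 and 92.6 RPM against 21.0 and 26.5 RPM. The genotypes did not overlap for any of the 6 genes given here with coordinates, as for 601 of the 602 differentially expressed entries.

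*Di19* (GRMZM2G038284, chr6:164372222-164375563), of a zinc finger family of dehydration responses, fell from 390 and 344 RPM in wild type to 157 and 140 RPM in *dcl1-2* (log2 −1.24, SE 0.14, adjusted p = 6.5e-05). Genes of CYP78 P450 enzymes, a family that promotes organ growth, fell at both tested loci that have such a symbol. This pair was not a list of its own. *cyp78* (GRMZM2G167986, chr1:243649093-243651434) was at 170 and 115 RPM against 61.8 and 58.9 RPM (log2 −1.18, SE 0.18, adjusted p = 0.00117). *CYP78A53* (GRMZM2G092823, chr1:207527757-207530173) was at 9.41 and 8.81 RPM against 0.661 and 0.968 RPM (log2 −3.39, SE 0.52, adjusted p = 0.00107). Both had a mean below 1 RPM in the CZ of both genotypes. Of the 13 tested P450 genes these 2 fell and 2 rose, beside 1.16% and 3.34% of all entries. Those that rose were the benzoxazinoid genes *BX4* and *BX5*.

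Heat shock genes had the lowest median of the lists with 10 or more tested members, −0.74 over 15 genes, of which 4 had a positive log2 fold change. *hsp101* (GRMZM2G360681, chr6:160621048-160624717), the disaggregase of thermotolerance, was at 12.4 and 9.62 RPM in wild type and 2.20 and 0.678 RPM in *dcl1-2* (log2 −2.89, SE 0.52, adjusted p = 0.00376). *hsbp1* (GRMZM2G085924), a negative regulator of heat shock factors, was at 0.103 and 12.5 RPM against 0 RPM in both *dcl1-2* libraries, so its call came from wild-type replicate 2. It overlaps GRMZM2G385313 on the other strand, with the same levels. Without that library it did not pass the filter. *HSF2* (GRMZM2G088242), a heat shock factor, rose from 30.3 and 30.1 RPM to 41.5 and 67.9 RPM, a call lost without *dcl1-2* replicate 2 (adjusted p = 0.497) or wild-type replicate 2 (adjusted p = 0.0503).

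Of 17 tested abscisic acid and drought genes, 2 rose and 1 fell, beside 3.34% and 1.16% of all entries, with a median of 0.28. PP2C phosphatases and SnRK2 kinases are the negative and positive arms of the hormone's signalling, though the PP2C family has many other members. Of 21 tested genes with a PP2C name, grouped after values were seen, 4 fell and none rose, beside 1.16% of all entries that fell, with a median of −0.16. *PP2C2* (GRMZM2G134628, chr3:220844236-220850001) was at 64.8 and 54.5 RPM in wild type and 20.04 and 25.6 RPM in *dcl1-2* (log2 −1.32, SE 0.20, adjusted p = 0.000842), and *PP2C12* (GRMZM5G818101) at 14.0 and 11.1 RPM against 3.30 and 3.001 RPM. *PP2C13* (GRMZM2G159811) and *PP2C11* (GRMZM2G308615) were at 0 in both *dcl1-2* libraries, at least 13.8-fold and 8.14-fold lower by the floor of 3 counts over the *dcl1-2* libraries. Their wild-type levels were at most 3.13 RPM, and their calls were lost without wild-type replicate 2 (adjusted p = 0.0975 and 0.065) and *dcl1-2* replicate 2 (adjusted p = 0.0502 and 0.204), that of *PP2C11* also without *dcl1-2* replicate 1 (adjusted p = 0.140), and it was below the filter without wild-type replicate 1. *SnRK2.1* (GRMZM2G035809) fell from 8.28 and 18.8 RPM to 2.42 and 4.36 RPM, a call lost without wild-type replicate 2 (adjusted p = 0.211), and *SnRK2.7* (GRMZM2G155593) rose from 152 and 132 RPM to 253 and 245 RPM. The dehydrin gene *dhn1* (GRMZM2G079440) was at 3.21 and 2.32 RPM against 0 and 0.194 RPM, opposite to *dhn2*, and its call was lost without wild-type replicate 1 (adjusted p = 0.0711) or *dcl1-2* replicate 1 (adjusted p = 0.0945).

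**Figure D4:**
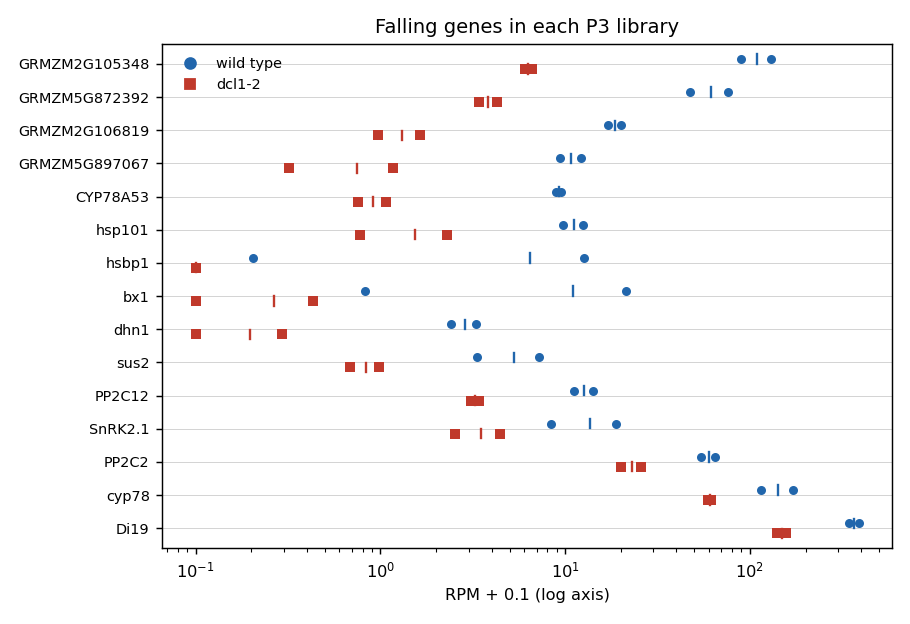
RPM of 15 falling genes in each P3 library (log axis, after adding 0.1 RPM). Circles are the 2 wild-type libraries, squares the 2 *dcl1-2* libraries and short lines their means. The replicates are close for GRMZM2G105348, *CYP78A53*, *cyp78* and *Di19*, and the wild-type libraries are far apart for *hsbp1* and *bx1*.

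Of the 38 lists built from gene symbols, 13 had no member that passed the test, with 128 tested genes between them. They included 26 ribosomal protein genes (median 0.08), 15 photosynthesis genes (0.12), 7 cellulose synthase genes (−0.37), 7 aquaporin genes (−0.18), 3 gibberellin genes and the class I KNOX genes. A gene that does not pass may still have changed, as the lists are small and each genotype has 2 libraries. The lists rest on symbols, and only 83 of the 602 differentially expressed entries have one.

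The differentially expressed genes were spread over the genome, with 2.20% (chromosome 5) to 3.43% (chromosome 1) of the tested genes of each chromosome called. Within 20 Mb of *DCL1*, 12 of 479 genes fell (2.51%), compared with 0.606% on the rest of chromosome 1 and 0.525% on other chromosomes. The shares that rose were 3.13%, 2.49% and 2.01%. GRMZM2G461427 (chr1:1787786-1788250) fell from 257 and 256 RPM to 101 and 98.5 RPM in P3, and from a mean of 353 RPM to 205 RPM in the CZ (log2 −0.82, adjusted p = 0.0329). The rising targets *rld2* and GRMZM2G000686 also lie within 20 Mb of *DCL1*. For such linked genes an effect of *dcl1-2* and an effect of alleles that came along from its donor cannot be told apart.

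In the CZ, 0.292% of the entries tested passed the test, so the P3 changes were set beside the CZ values of the same genes. Of the 472 rising genes 320 were also tested in the CZ, where their median log2 fold change was −0.12, 140 were positive, 7 rose and 3 fell. Of the 130 falling genes 101 were tested there, with a median of −0.05, and 2 fell. Many of the rising genes were scarce in the CZ, as 171 of the 472 were below 1 RPM in wild-type CZ (36.2%, against 17.4% of all genes tested in P3). The difference of the *dcl1-2* effect between the tissues was tested in 1 model over all 8 libraries. It passed for 174 of the rising and 24 of the falling genes, beside 2.36% of all entries. These genes were selected for their P3 change, which enters the difference, so the counts are a description. For *lox1*, the CZ means of wild type and *dcl1-2* were 5.35 and 2.72 RPM. For *SCR* they were 82.7 and 57.7 RPM, and for *frk2* 33.3 and 15.4 RPM, with CZ log2 fold changes of −0.996, −0.55 and −1.14 that did not pass the test. The summed YABBY level in the CZ was 36.9 and 54.2 RPM in wild type and 10.4 and 24.5 RPM in *dcl1-2*, and its part in the CZ values was not tested. CZ libraries were sequenced from 1 end and held 24753974 to 30327603 counts, so that tissue and library type cannot be told apart.

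**Figure D5:**
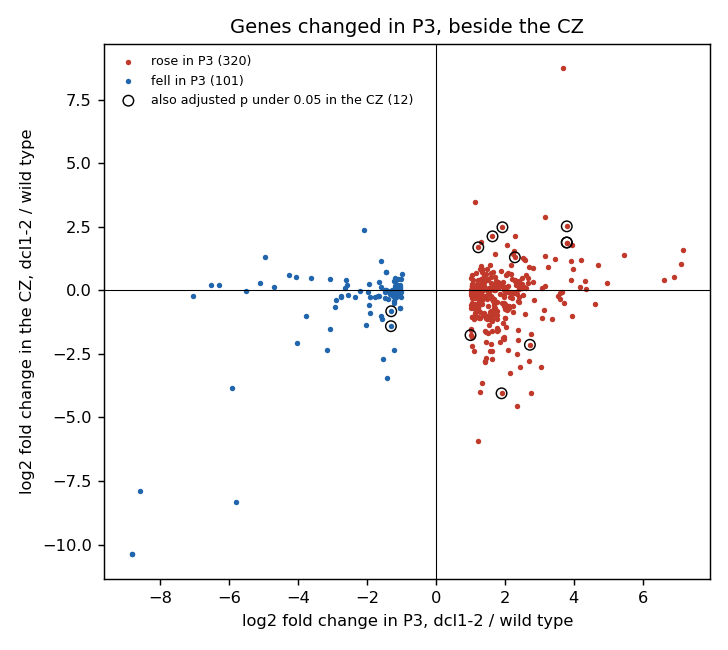
Log2 fold change of *dcl1-2* against wild type in P3 (horizontal axis) and in the CZ (vertical axis) for genes differentially expressed in P3 and tested in both. Red points rose in P3 (320) and blue points fell (101). The quartiles of the red points lie at −0.78 and 0.30 in the CZ and those of the blue points at −0.32 and 0.17, and circled points passed the test there (7 red rose, 3 red fell, 2 blue fell).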

How the data were processed

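RNA-seq reads of 4 P3 and 4 CZ libraries, single-end for the CZ and paired-end for P3, had been trimmed with Trimmomatic, aligned to B73 RefGen_v3 with TopHat and counted per gene from uniquely mapped reads with HTSeq. The authors deposited raw counts per gene entry in 1 table, with models for miRNA precursors. The 8 RPM columns beside the counts, which are scaled differently, were not used, and 1 blank count was read as 0. The labels name another linear amplification kit than the study's methods. A small RNA library of wild-type apices was not used.

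RPM was computed from each count and its column total, and entries averaging 1 RPM or more in either genotype were kept. Main tests were edgeR's (version 4.0.16, R 4.3.3) quasi-likelihood F tests on the counts of the 4 P3 libraries after TMM scaling, with Benjamini-Hochberg adjustment over all 22498 entries kept, precursors included. The study used DESeq2, which was run as an alternative (version 1.42.0), as was limma-voom (limma 3.58.1). The CZ was fitted alone, and the difference between the tissues in 1 model over 8 libraries. Every adjusted p is from edgeR. A gene with no count in a genotype was given a lower bound on its fold from a floor of 3 counts over the 2 libraries. Scripts were tested on simulated data.

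Symbols came from the RefSeq gene table, which matched 18752 entries and named 2692. Target and pathway lists and miRNA and site sequences are those of the study's supplementary tables. The members and lists were chosen with earlier results of these data known. Genes were named by rule: *DCL1*; the 15 highest and 15 lowest log2 fold changes among entries at 5 RPM or more whose libraries separate, and the same among entries with a symbol; the 10 largest rises and falls in RPM; up to 4 passing members of each list; and passing targets and pathway genes. The text gives a selection of these and the values of members of the jasmonate, benzoxazinoid and epidermal lists, and says where a gene was named after its values were seen, and not all genes that the rule names are reported here. The study's methods give 2 biological replicates per group; the labels do not say how replicates were separated, so that p-values measure the spread between these libraries. Replicate numbers did not pair the libraries (correlation of deviations 0.005).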

Additional observations from a re-analysis of the deposited data

Results flagged for a closer look

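The effect of *dcl1-2* in P3 was set against that in the CZ for 91 genes named above that passed the test in P3, and for 36 of them the difference passed edgeR's test (adjusted p under 0.05). Values are P3 log2 fold change minus CZ log2 fold change. Beside them, 2.36% of all entries passed. The genes were chosen for their change in P3, the tissues differ in library type, and the summed YABBY level in the CZ was lower in both *dcl1-2* libraries; the part of these in the differences was not tested.

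Within the jasmonate and wound list the difference was 4.97 for *lox1*, 6.78 for *lox10*, 2.59 for *lox5*, 1.26 for *lox11*, 2.26 for *aoc1* and 1.81 for *MYC2a*. That of *lox10* was fitted against CZ levels near the detection limit, 2.08 and 0 RPM in wild type and 0 and 0.119 RPM in *dcl1-2*. GRMZM2G458554, inside the model of *lox1*, had a difference of 11.41, fitted against *dcl1-2* CZ libraries without a count. Among miRNA targets it was 1.84 for GRMZM2G178102, 1.32 for GRMZM2G003509, 0.99 for both GRMZM2G469551 and *rld2*, 1.45 for *CUC2*, 3.69 for *GRF9*, 1.27 for *GRF11*, 1.86 for *sbp29* and 1.76 for GRMZM2G081406. GRMZM2G374085, which overlaps *MIR159a*, had a difference of 1.44.

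Regulators and hormone genes followed with 4.04 for *bZip112*, 1.68 for *SCR*, 3.08 for *bif2*, 5.26 for *CKX12* and 1.61 for *SnRK2.7*. Enzyme and defence genes had differences of 2.85 (*BX5*), 2.84 (*gst41*), 3.70 (*dhn2*), 2.25 (*frk2*), 3.92 (*adh2*), 1.21 (*pdh2*) and 1.57 (*CER1*). Of the unnamed rising genes, GRMZM2G003368 had 3.12, GRMZM2G496319 1.81 and GRMZM2G702204 3.74. The differences were negative for the falling genes GRMZM2G105348 (−4.58), *Di19* (−1.03), GRMZM2G123896 (−1.22) and *PP2C11* (−7.55), the last against *dcl1-2* P3 libraries without a count.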

How the results depend on the processing

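No named gene that passed the test changed direction under an alternative. With all 8 libraries in 1 model, 302 genes were differentially expressed, 242 higher and 60 lower, and 31 list members passed in place of 71. An adjusted p under 0.05 with no fold limit gave 989 genes (731 higher, 258 lower), and an adjusted p under 0.01 gave 304 (259 higher, 45 lower). With no filter beyond 1 count, 231 genes were lower. The replicate block, which takes the replicate number as a term, gave 866 genes, 633 higher and 233 lower, although the numbers did not pair the libraries. Leaving out 1 library gave 422 to 759 genes, 301 to 587 higher and 103 to 220 lower, and 51 to 120 list members. RLE and upper-quartile scaling, halved counts, the other filters, total counts, DESeq2 and limma-voom gave 482 to 606 genes. Of 143 genes that passed and could be named, total counts lost 9, DESeq2 8, limma-voom 21, and the model over 8 libraries 63; leaving out *dcl1-2* replicate 2 lost 42 of 142. The cause of these losses was not tested. With 2 libraries per group, leaving out 1 assumes that the lone library varies like the other group. At the filter of 1 RPM a gene rests on few counts.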
